A study of Mus musculus with 18 samples.

Results

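The genes examined here were 9 basement membrane genes of the 51467 genes in the count table: the laminin genes Lama1, Lamb1 and Lamc1, the type IV collagen genes Col4a1 and Col4a2, the nidogen gene Nid1, the perlecan gene Hspg2, and Sparc and Fn1. They were chosen by name, as secreted and mostly long products of the basement membrane, and their symbols were mapped to the Ensembl identifiers of the table. All 9 passed the filter on low counts (a level of at least 3 CPM, which are counts scaled to the library total, in at least 3 libraries), as did 12705 genes in all. Library counts of the 9 genes ranged from 15 (Lama1) to 58317 (Sparc). On GRCm38, Lamb1 (ENSMUSG00000002900.16) at chr12:31265234-31329644, Lama1 (ENSMUSG00000032796.7) at chr17:67697259-67822647, Nid1 (ENSMUSG00000005397.8) at chr13:13437551-13512269, Hspg2 (ENSMUSG00000028763.17) at chr4:137468769-137570630 and Col4a2 (ENSMUSG00000031503.13) at chr8:11312805-11449287 lie on the plus strand. Lamc1 (ENSMUSG00000026478.14) at chr1:153218922-153332786, Col4a1 (ENSMUSG00000031502.11) at chr8:11198423-11312826, Sparc (ENSMUSG00000018593.13) at chr11:55394500-55423183 and Fn1 (ENSMUSG00000026193.15) at chr1:71585520-71653200 lie on the minus strand. No exon of another gene on the same strand overlapped any of them.

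A basement membrane is a thin sheet of matrix on which epithelial cells rest, and in the early mouse embryo it is laid down by primitive endoderm and its derivatives beside the pluripotent epiblast. Laminin is a trimer of one α, one β and one γ chain that assembles inside the cell and polymerizes at its surface. Type IV collagen forms a second network, nidogen and perlecan link both, and all of these proteins enter the secretory pathway through ribosomes bound to the endoplasmic reticulum. DDX6 is an RNA helicase of P-bodies known for roles in repressing translation and in mRNA turnover, also downstream of microRNAs.

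The cells were V6.5 mouse embryonic stem cells (ESCs) grown in serum with LIF and 2i, an inhibitor pair that holds them in the naive state. They were wild-type (WT) or knockout for Ddx6 (KO), the knockout having been made by CRISPR-Cas9 in 2 clones, with KO gradient 1 from clone 1 and KO gradients 2 and 3 from clone 2. After cycloheximide treatment, which stops ribosomes in place, each lysate was spun through a sucrose gradient, from which 3 fractions were taken: the monosome, the low polysome with 2 to 4 ribosomes and the high polysome with 4 or more. There were 3 gradients per genotype and 18 libraries in 6 groups of 3, with 2543617 (WT monosome, gradient 1) to 11474550 gene counts per library. Ddx6 itself fell in KO in every fraction (log2 change −2.35, −2.62 and −3.32 from the lightest to the heaviest, limma adjusted p = 0.000692, 0.000117 and 1.72e-05), with 55.3 to 82.7 CPM left in clone 1 and 9.68 to 26.7 CPM in clone 2, against 143 to 213 CPM in WT. Of the ESC markers, all 10 listed were detected in every library, with summed levels of 2996 to 6649 CPM in WT and 3123 to 4938 CPM in KO. The genotypes were separate in the high polysome (5394 to 6649 CPM in WT, 3904 to 4938 CPM in KO) and, the other way, in the monosome (3196 to 3251 CPM in WT, 3549 to 4427 CPM in KO). In abundance Tfcp2l1, Sox2 and Dppa5a fell (log2 change −0.57, −0.46 and −0.53, limma adjusted p = 0.000474, 0.00146 and 0.00366), and Klf4 and Nanog rose (0.41 and 0.32, limma adjusted p = 0.00555 and 0.0376). The 12 listed markers of primitive and parietal endoderm, which make basement membrane, summed to 16.96 to 36.2 CPM in WT and 20.01 to 67.6 CPM in KO, and were separate in the high polysome (28.4 to 36.2 CPM in WT, 47.3 to 67.6 CPM in KO). These markers were also separate in the low polysome (25.8 to 30.3 CPM in WT, 31.4 to 40.3 CPM in KO) and overlapped in the monosome. Only 3 of these (Dab2, Amn, Lrp2) passed the filter, and the defining factors Gata6, Gata4 and Sox17 reached at most 2.56, 3.59 and 2.90 CPM in any library. Dab2 and Amn rose in KO (log2 change in abundance 1.22 and 1.05, limma adjusted p = 0.000707 and 0.00107). Lrp2, which had the highest level of the 3, did not pass in abundance (0.07, limma adjusted p = 0.745). Amn averaged at most 2.59 CPM in a WT fraction and passed the filter mainly through KO libraries. The 10 feeder fibroblast markers summed to 4.88 to 11.97 CPM in WT and 9.23 to 16.1 CPM in KO, and Col3a1 was at 0 counts in every library. The feeder sums were separate in the monosome (4.879 to 7.168 CPM in WT, 9.234 to 12.76 CPM in KO). They were also separate in the high polysome (7.503 to 8.856 CPM in WT, 12.17 to 15.55 CPM in KO). In the low polysome they overlapped. Fbn1 and Col1a1 rose (log2 change 2.19 and 0.51, limma adjusted p = 1.09e-05 and 0.0341). Fbn1 had 1 to 14 counts per WT library, averaged at most 1.08 CPM in a WT fraction and passed the filter through KO libraries. Thy1, the remaining feeder marker tested, gave −0.48 in abundance (limma adjusted p = 0.0651) and fell in the high polysome (−1.29, limma adjusted p = 0.00127) and in the ratio of high polysome to monosome (−2.17, limma adjusted p = 0.00527). The part of such cells in the results below was not tested, and in lysates of whole cultures fewer cells of a type and less RNA per cell cannot be told apart.

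Because DDX6 acts with microRNAs, the 3′ UTRs of the 9 genes (Gencode M21, GRCm38) were searched for matches to the seeds, bases 2 to 8, of miR-29, a family known for its matrix targets, and of the ESC-enriched miR-290 family. The mature RefSeq sequences below carry the seed in capitals.

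miR-29b-3p: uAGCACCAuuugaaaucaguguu

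miR-291a-3p: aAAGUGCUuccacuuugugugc

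The 8-base match to miR-29, TGGTGCTA, was present once in the 3′ UTR of Lamc1 and once in that of Col4a1, and the 7-base match TGGTGCT occurred in Col4a2 at 2 places. The match to the miR-290 family seed, AGCACTT, was found once each in Col4a2 and Nid1. The 6 sites are shown on the strand of the mRNA, with the match in capitals. Each lies within 1 exon, at chr1:153220057-153220086 (Lamc1, minus strand), chr8:11199750-11199779 (Col4a1, minus strand), chr8:11448348-11448377, chr8:11448519-11448548 and chr8:11448972-11449001 (Col4a2, plus strand) and chr13:13510368-13510397 (Nid1, plus strand).

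Lamc1, miR-29: atctgacacacTGGTGCTAttaattatttg

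Col4a1, miR-29: ccgtcacaacaTGGTGCTActcccccccct

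Col4a2, miR-29, first site: gaaggccacgtTGGTGCTtatccttctgta

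Col4a2, miR-29, second site: cacacccagctTGGTGCTtactcttaactt

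Col4a2, miR-290 family: gaggagatgatAGCACTTttttctatcaaa

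Nid1, miR-290 family: cctgcaaccctAGCACTTgggaggcagagg

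Among 11739 3′ UTRs of tested genes, 14.4% held the 7-base match to miR-29, 3.01% its 8-base match, and 16.2% the 7-base match to the miR-290 family. These are matches of letters and are not evidence of binding. No such match was found in Lama1, Lamb1, Hspg2, Sparc or Fn1.

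Col4a1 and Col4a2 are a head-to-head pair on chromosome 8 whose RefSeq start sites (GRCm38.p6) lie 21 bases apart, so that 1 window holds both. It is printed because it holds the start sites of these 2 members. It runs from 250 bases before to 50 bases after the Col4a2 start, at chr8:11312555-11312854 on the plus strand. The window placed in the same way on the Col4a1 start shares 78 bases with it and is not printed. Capitals mark the GC box GGGCGG, which reads CCGCCC when it lies on the other strand, and the CCAAT box. No marked motif overlaps another.

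Col4a2 promoter: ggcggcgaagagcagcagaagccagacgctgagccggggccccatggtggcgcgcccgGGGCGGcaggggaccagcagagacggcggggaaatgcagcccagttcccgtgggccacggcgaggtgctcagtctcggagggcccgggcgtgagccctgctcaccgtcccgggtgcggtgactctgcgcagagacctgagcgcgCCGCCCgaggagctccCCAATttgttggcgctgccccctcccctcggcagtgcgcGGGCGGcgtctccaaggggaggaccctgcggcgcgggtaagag

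This Col4a2 window held 3 GC boxes and 1 CCAAT box, and no TATA box, spelled TATAAA. Among all 32851 RefSeq promoter windows, 35.7% held a GC box, 37.4% a CCAAT box and 13.6% TATAAA on either strand.

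The 9 transcripts covered a wide range of levels. Each read marks one transcript 3′ end, so CPM values of different genes are compared here without division by length. With the 3 fractions of a gradient summed, Sparc, which encodes a collagen-binding glycoprotein, stood at 2626 ± 195 CPM in WT (SD, n = 3) and was far above the rest. Fn1 (379 ± 41.5 CPM), Nid1 (301 ± 37.9 CPM), Lamc1 (269.6 ± 37.8 CPM) and Hspg2 (202 ± 46.7 CPM) formed a middle group in which each neighbour overlapped the next over gradients. Col4a1 (17.8 ± 3.85 CPM), Lamb1 (17.4 ± 4.18 CPM) and Lama1 (14.4 ± 2.43 CPM) overlapped one another, and Col4a2 (8.41 ± 1.72 CPM) lay below them in every gradient. The γ1 chain transcript was thus more abundant than those of the α1 and β1 chains with which it forms a trimer. In KO the order changed to Sparc (3680 ± 377 CPM), Lamc1 (335 ± 67.4 CPM), Fn1 (240.4 ± 34.6 CPM), Hspg2 (233 ± 8.54 CPM), Nid1 (127.5 ± 11.7 CPM), Lamb1 (31.6 ± 5.33 CPM), Lama1 (17.1 ± 2.76 CPM), Col4a1 (15.1 ± 2.88 CPM) and Col4a2 (8.26 ± 1.92 CPM). There Lamc1 overlapped Fn1, Fn1 overlapped Hspg2 and Lama1 overlapped Col4a1, while Nid1 now lay below Hspg2 in every gradient and Lamb1 above Lama1 and Col4a1.

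**Figure D1:**
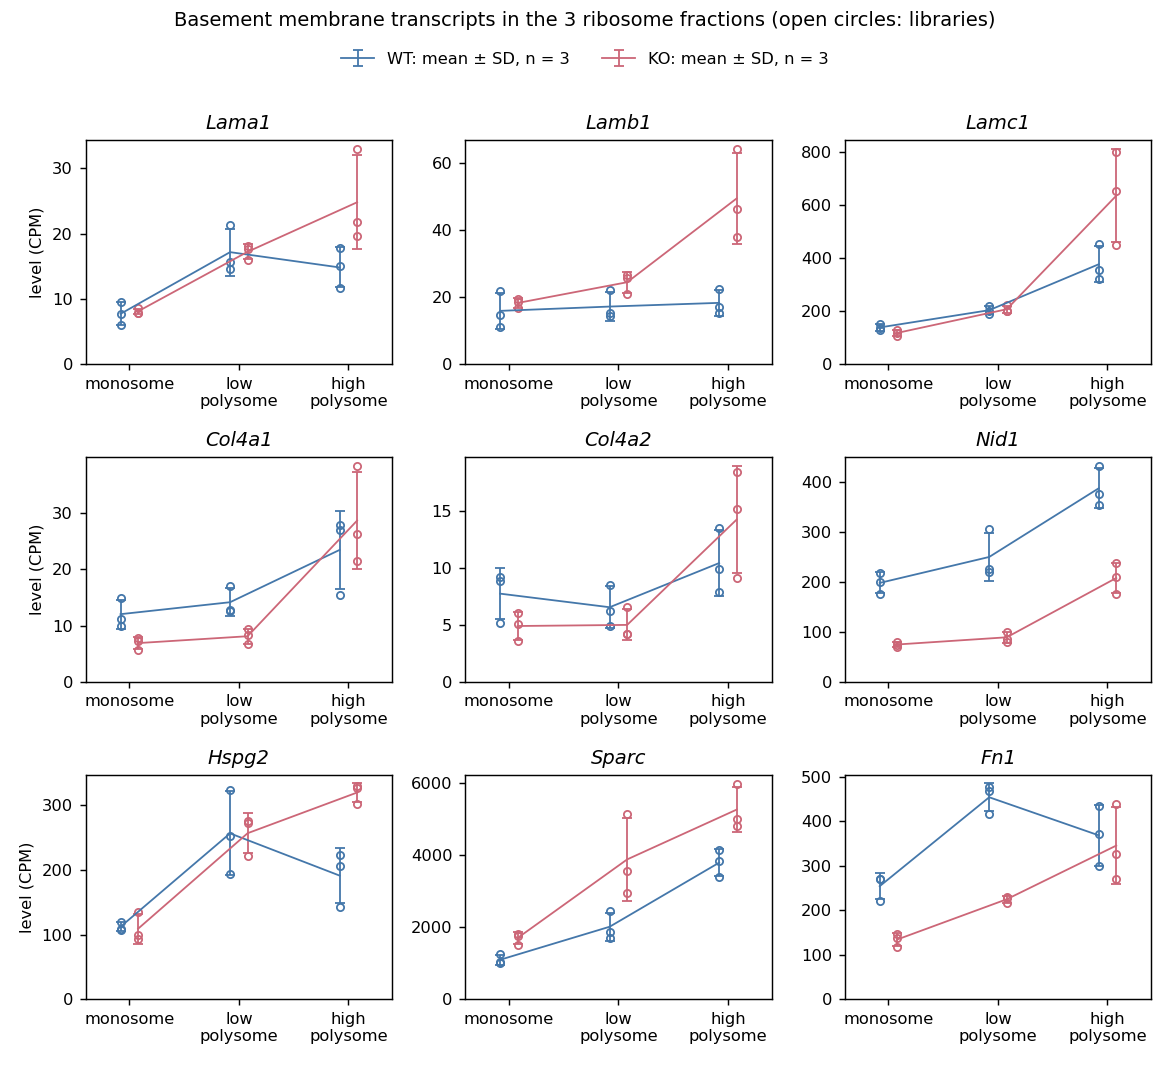
Levels of the 9 basement membrane transcripts (CPM, y axis from 0) in the 3 ribosome fractions of WT and Ddx6 KO ESCs. Circles are libraries and lines join means ± SD of 3 gradients. In WT, Lama1, Hspg2 and Fn1 have their highest mean in the low polysome, and in KO all 9 have it in the high polysome.

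The first question was how heavily these mRNAs are loaded in WT cells, for which the study uses the ratio of high polysome to monosome, called the translation level here. In WT, 7 of the 9 members had a higher level in the high polysome and none had a lower one, by limma with Benjamini-Hochberg adjustment over all genes. Across all genes 28.9% were higher and 32.2% lower. The members' median log2 ratio was 0.89, against −0.02 over all genes tested.

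Sparc had the steepest gradient. Its 3 WT libraries held 1026, 1253 and 1013 CPM in the monosome and 4143, 3382 and 3830 CPM in the high polysome, without overlap (log2 ratio 1.79 ± 0.17, SE, limma adjusted p = 2.28e-08). Lamc1 went from 127, 138 and 151 CPM to 357, 322 and 453 CPM (1.42 ± 0.17, limma adjusted p = 4.56e-07). Nid1, which bridges laminin and collagen IV, rose from 176, 200.0 and 217 CPM to 376, 354 and 431 CPM (0.96 ± 0.14, limma adjusted p = 8.19e-06). For these 3 genes the 3 high polysome libraries all lay above the 3 monosome libraries. The same held for Lama1, Col4a1, Hspg2 and Fn1, while Lamb1 and Col4a2 overlapped. The share of all genes without overlap in WT was not counted.

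Lama1 (log2 ratio 0.90 ± 0.29, SE), Col4a1 (0.89 ± 0.29), Hspg2 (0.74 ± 0.19) and Fn1 (0.52 ± 0.16) were also higher in the WT high polysome (limma adjusted p = 0.0104, 0.0122, 0.00207 and 0.00818). Without WT gradient 3, Lama1 and Fn1 missed the threshold (limma adjusted p = 0.0917 and 0.0656), and without WT gradient 1, Col4a1 and Fn1 did (limma adjusted p = 0.0640 and 0.0602). Col4a2 and Lamb1 gave ratios of 0.50 ± 0.35 and 0.22 ± 0.27 that did not pass (limma adjusted p = 0.215 and 0.501, 95% intervals −0.22 to 1.22 and −0.35 to 0.79).

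In KO cells all 9 members were enriched in the heaviest fraction over the monosome, where 35.0% of all genes were higher and 33.6% lower. Their median log2 ratio was 1.57, against 0.03 over all genes. Of the genes with a coding length over 3000 nt, as 8 of the members have, 56.4% were higher and 11.8% lower (median 0.61). Lamc1 reached 2.39 ± 0.17 (SE, limma adjusted p = 1.68e-10), Col4a1 2.02 ± 0.28 (limma adjusted p = 1.87e-06) and Sparc 1.63 ± 0.17 (limma adjusted p = 5.83e-08). Those 3 lay above 99.8%, 99.3% and 96.5% of all genes tested in this ratio. The other 6 lay between 1.34 (Fn1) and 1.57 (Hspg2).

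The comparison of main interest was whether loss of DDX6 changed the translation level, tested as the interaction of genotype and fraction. Of the 9 members, 4 rose (Lamb1, Lamc1, Hspg2 and Fn1) and none fell, and 8 of 9 had a positive estimate. In the same fit 10.7% of all genes rose and 7.09% fell. The members' median effect was 0.83 on the log2 scale, against 0.02 over all genes. With library sizes alone in place of TMM, 3 members rose and none fell, the median of all genes moved to −0.10, and the split over all genes went from 1357 raised and 901 lowered to 936 raised and 1386 lowered.

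Among the laminin chains, Lamb1, the β1 chain, showed the largest estimate of the 9. It held 14.7, 11.2 and 21.8 CPM in the WT monosome and 15.3, 17.01 and 22.5 CPM in the WT high polysome, which is a nearly flat profile. In KO it held 19.5, 18.5 and 16.7 CPM in the monosome and 37.8, 64.1 and 46.1 CPM in the high polysome. Only the KO high polysome stood apart, above all WT libraries, and the effect was 1.18 ± 0.35 (log2, SE, limma adjusted p = 0.0241).

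Lamc1, the γ1 chain, held 107, 130 and 117.5 CPM in the KO monosome, overlapping WT, and 451, 802 and 656 CPM in the KO high polysome, where only gradient 1 fell within the WT range. Its effect was 0.97 ± 0.24 (limma adjusted p = 0.00919). Lama1, the α1 chain, was at 5.97, 9.53 and 7.67 CPM in the WT monosome and 7.91, 8.58 and 7.82 CPM in the KO monosome, and at 11.7, 15.0 and 17.8 CPM in the WT high polysome and 19.6, 33.1 and 21.8 CPM in that of KO. Its effect of 0.67 ± 0.36 did not pass (limma adjusted p = 0.208, 95% interval −0.09 to 1.43), with as few as 15 counts in the shallowest library.

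The collagen IV chains, which are made as a trimer of 2 α1 chains with 1 α2 chain, gave estimates as large as those of the laminins but did not pass. Col4a1 was at 11.2, 9.99 and 14.9 CPM in the WT monosome and 27.9, 15.5 and 26.9 CPM in the WT high polysome, and at 7.78, 5.68 and 7.18 CPM and 21.5, 38.3 and 26.2 CPM in KO. The monosome levels of KO lay below all those of WT, whereas the high polysome levels overlapped. Its effect was 1.13 ± 0.40 (limma adjusted p = 0.0561), and it passed with the gradient as a replicate block (limma adjusted p = 0.0292), in edgeR (adjusted p = 0.0364) and in DESeq2 (adjusted p = 0.0326). Col4a2 gave 0.999 ± 0.465 (limma adjusted p = 0.139, 95% interval 0.03 to 1.97) from 23 to 169 counts per library. Without KO gradient 1 both collagens passed (limma adjusted p = 0.0319 and 0.0367), as did Col4a2 without WT gradient 3 (limma adjusted p = 0.0425).

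Hspg2 encodes perlecan, a heparan sulfate proteoglycan and the longest product here. Its level was 109, 120.1 and 108 CPM in the WT monosome and 136, 99.1 and 92.7 CPM in the KO monosome, and 224, 143 and 207 CPM in the WT high polysome against 302, 329 and 327 CPM in that of KO. The genotypes overlapped in the monosome and were separate in the high polysome, with an effect of 0.83 ± 0.26 (limma adjusted p = 0.0345). Fn1, fibronectin, reached a similar effect (0.82 ± 0.23, limma adjusted p = 0.0178) in another way. It was lower in the KO monosome (118, 147 and 139 CPM, against 220.2, 271 and 271 CPM in WT), while its high polysome levels overlapped (271, 439 and 327 CPM in KO, 372, 299 and 435 CPM in WT).

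Nid1 and Sparc did not pass. Nid1 gave 0.50 ± 0.21 (limma adjusted p = 0.0951, 95% interval 0.07 to 0.93). Sparc was the 1 member with a negative estimate, −0.16 ± 0.24 (limma adjusted p = 0.681, 95% interval −0.67 to 0.35), and its level rose in each KO fraction, as described below. Of the members with a seed match, Lamc1 passed, and Col4a1, Col4a2 and Nid1 did not, though Col4a1 did in other fits, as given above. Of those without one, Lamb1, Hspg2 and Fn1 passed, and Lama1 and Sparc did not. This listing pools the miR-29 and miR-290 families, and the share of calls among all genes with a match was not counted. A part of microRNAs in these effects was not tested.

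The number of calls on the translation level changed with single gradients. Leaving out 1 gradient at a time left 6 members raised without KO gradient 1, 3 without WT gradient 3, 1 each when KO gradient 2 or WT gradient 1 or 2 was omitted, and 0 without KO gradient 3 (6 at an unadjusted p under 0.05), with 8 of 9 estimates positive each time.

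**Figure D2:**
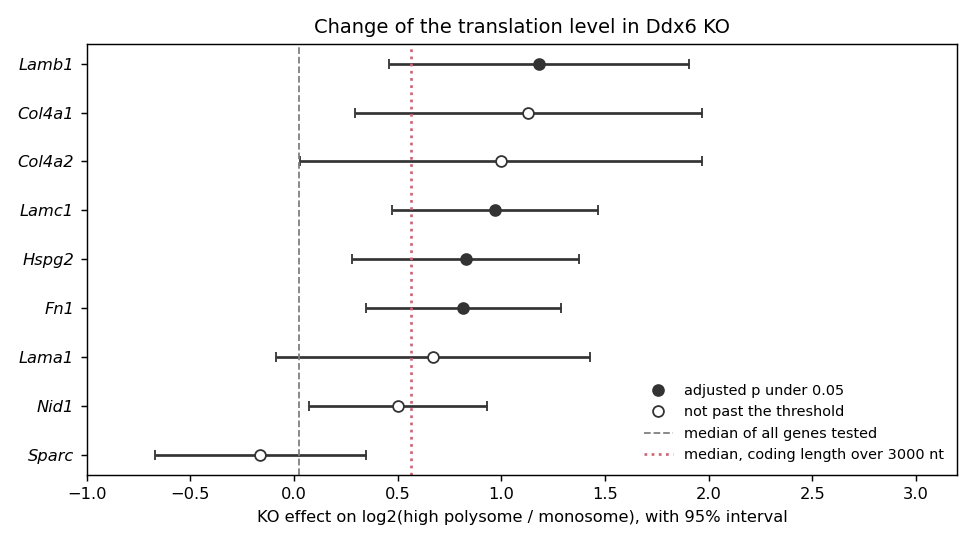
KO effect on the translation level (x axis, log2 scale) of the 9 members with 95% intervals from limma, filled where the adjusted p was under 0.05. The dashed line is the median of all genes (0.02) and the dotted line the median of genes with a coding length over 3000 nt (0.57), and Lamb1, Lamc1, Hspg2 and Fn1 are the filled points.

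The effect on the translation level followed coding length over all genes, and 8 of the 9 members are long. Their coding lengths are 3735 nt (Nid1), 4821 nt (Lamc1), 5007 nt (Col4a1), 5121 nt (Col4a2), 5358 nt (Lamb1), 7431 nt (Fn1), 9249 nt (Lama1) and 13149 nt (Hspg2), while that of Sparc is 906 nt. Over the 1569 tested genes with a coding length above 3000 nt, 28.1% rose and 0.829% fell, with a median effect of 0.57. Of the 8 long members 4 rose, with a median of 0.90. Over the 2810 genes of 500 to 1000 nt, 1.81% rose and 15.6% fell, with a median of −0.33, and Sparc lay at −0.16.

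When the trend with coding length was removed from every library, no member passed in limma (0 of 9, 0 at an unadjusted p under 0.05), and the estimates ran from −0.04 (Lama1) to 0.59 (Lamb1), with a median of 0.15 and 7 of 9 positive. Lamb1 then had limma adjusted p = 0.252, Lamc1 0.40 (limma adjusted p = 0.253), Fn1 0.15 (limma adjusted p = 0.708) and Hspg2 0.05 (limma adjusted p = 0.944).

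**Figure D3:**
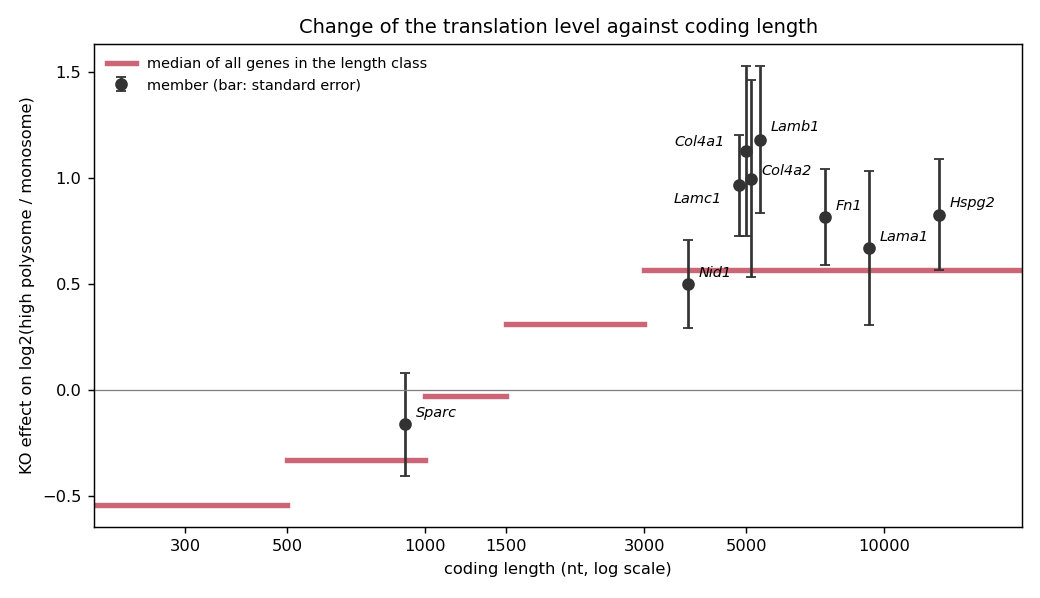
KO effect on the translation level (y axis, log2 scale) against coding length (x axis, nt, log scale). Points are the 9 members with their standard error and horizontal bars the median of all tested genes in 5 length classes, which climb from −0.54 (up to 500 nt) to 0.57 (over 3000 nt). Sparc sits in the second class from the left and the other members in the longest.

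For the low polysome over the monosome, none of the 9 members passed the interaction test in limma (0 at an unadjusted p under 0.05, and 0 calls in edgeR and in DESeq2), with adjusted p from 0.548 (Sparc) to 0.998 (Col4a1), where 2.31% of all genes rose and 2.39% fell. With library sizes alone, the split over all genes went from 294 raised and 304 lowered to 229 raised and 494 lowered, with 0 members called. The median effect of the members was 0.09. The intervals were wide: for Lamb1 the effect was 0.31 with a 95% interval of −0.44 to 1.06.

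The 3 longest members, Hspg2, Lama1 and Fn1, peaked in the low polysome in each WT gradient and in the high polysome in each KO gradient. The log2 ratio of high over low polysome for Hspg2 was −0.53, −0.44 and −0.29 in WT gradients 1, 2 and 3 and 0.13, 0.27 and 0.56 in KO. Lama1 had −0.31, −0.06 and −0.25 in WT and 0.15, 0.85 and 0.44 in KO, and Fn1 had −0.33, −0.48 and −0.13 in WT and 0.25, 0.93 and 0.60 in KO. In these 3 genes every WT value was below 0 and every KO value above 0. The share of all genes, or of long genes, with such a change of peak or of the sign of this ratio was not counted.

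Across the members, 8 of 9 had this ratio higher in all 3 KO gradients than in all 3 WT gradients, the exception being Sparc. That held for 17.7% of all genes and for 54.0% of the genes with a coding length over 3000 nt. For high polysome over monosome it was true of 7 of the 9 members (not Col4a2 and Sparc), of 21.2% of all genes and of 46.1% of those over 3000 nt. This ratio was examined after its values were seen and is given as a description without a test.

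**Figure D4:**
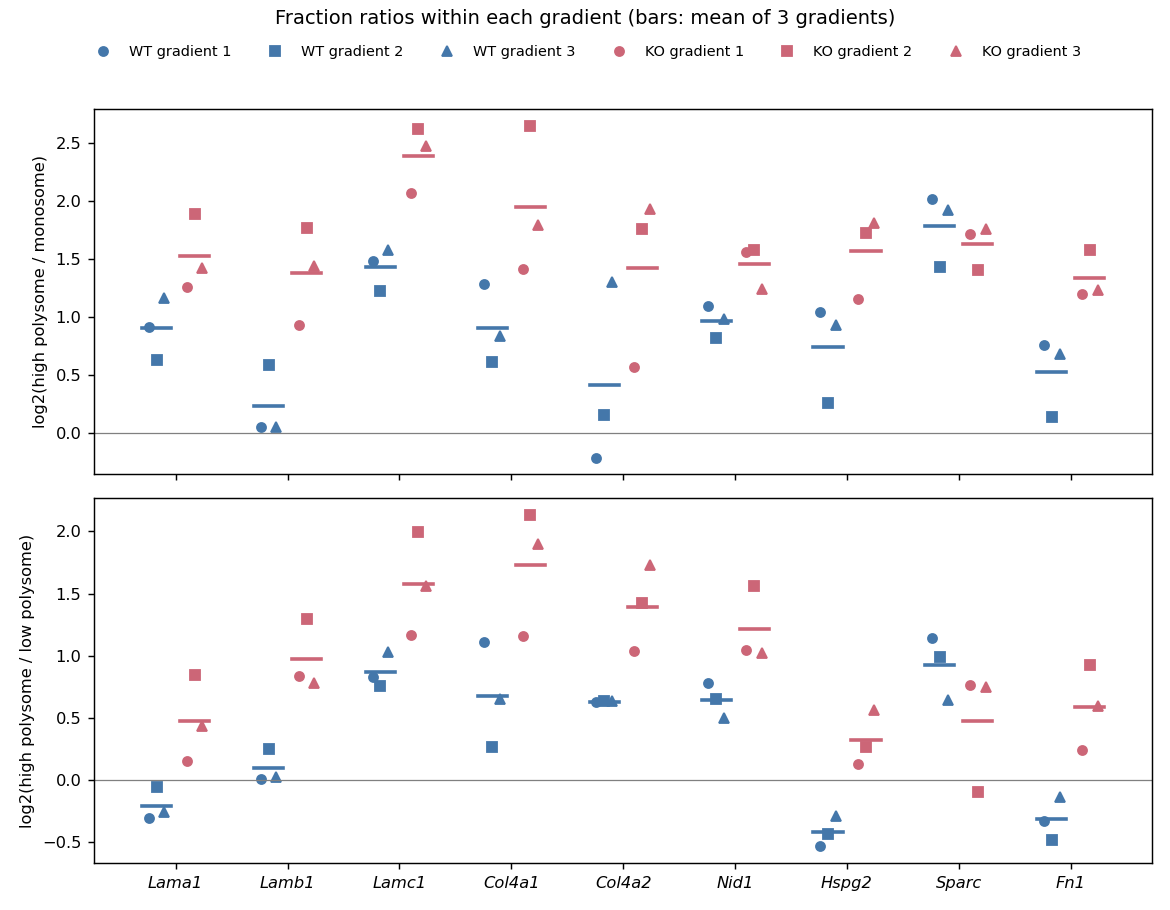
Log2 ratios within each gradient for the 9 members, high polysome over monosome above and high over low polysome below (pseudocount of 0.5 CPM). Symbols are gradients and bars the means of 3. In the lower panel the WT values of Lama1, Hspg2 and Fn1 are all below 0 and their KO values all above 0.

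The KO gradient of clone 1 was often the mildest. In 7 of the 9 members (not Nid1 and Sparc) the ratio of high polysome to monosome was lowest in gradient 1 among the KO gradients, for instance 2.07 for Lamc1 against 2.62 and 2.48 in the gradients of clone 2, and 1.15 for Hspg2 against 1.73 and 1.81. Clone 1 also kept more Ddx6 reads, as given above, and a link of these reads to the milder ratios was not tested. By western blot, the study found DDX6 protein absent from both clones. The share of all genes, or of long genes, with their lowest KO ratio in gradient 1 was not counted. With 1 gradient of clone 1, clone and gradient cannot be told apart.

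The levels themselves were then compared between genotypes, fraction by fraction and with the fractions of a gradient summed. This sum, called abundance, leaves out mRNA free of ribosomes and weights each fraction by its library depth. That weighting differed between genotypes. Monosome libraries held 2543617 to 4894677 gene counts in WT and 7537656 to 7811071 in KO. High polysome libraries held 8055321 to 10289531 in WT and 9195494 to 10236192 in KO. In abundance 2 members rose (Lamb1 and Sparc) and 2 fell (Nid1 and Fn1), where 27.8% of all genes rose and 27.2% fell, so the members' share of calls was close to that of all genes. Their median change was 0.23 on the log2 scale, against −0.02 over all genes.

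Nid1 had the largest difference. Summed over fractions it stood at 276, 281 and 344 CPM in WT and at 131, 137 and 114 CPM in KO, without overlap (log2 change −1.23 ± 0.11, SE, limma adjusted p = 4.79e-07). It was lower in each KO fraction (−1.41 in the monosome, −1.48 and −0.90 in the light and heavy polysomes), with limma adjusted p = 4.90e-07, 1.09e-07 and 3.23e-05. Fewer than 10% of all genes had a lower value in each of these 3 comparisons.

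Fn1 stood at 389, 334 and 415 CPM in WT and 209, 277.5 and 234 CPM in KO (log2 change −0.66 ± 0.12, limma adjusted p = 0.000323). It fell in the monosome (−0.92, limma adjusted p = 0.000162) and the low polysome (−1.01, limma adjusted p = 2.96e-05) and not in the high polysome (−0.11, limma adjusted p = 0.605, 95% interval −0.43 to 0.22). The low polysome levels were 468, 417 and 476 CPM in WT and 228, 230.4 and 216 CPM in KO. Thus the lighter fractions of both Fn1 and Nid1 were separate between genotypes, and the heaviest one was so for Nid1 but overlapped for Fn1.

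Sparc rose from 2685, 2408 and 2785 CPM in WT to 3246, 3879 and 3916 CPM in KO (0.48 ± 0.11, limma adjusted p = 0.00197), and in each fraction (0.63, 0.92 and 0.47 from the lightest to the heaviest), with limma adjusted p = 0.00675, 0.000181 and 0.0284. The high polysome call was lost in DESeq2 (adjusted p = 0.0588), with its size factors in limma (adjusted p = 0.0574) and when WT gradient 1 or 2 or KO gradient 3 was left out (limma adjusted p = 0.0641, 0.117 and 0.163). Lamb1 rose from 15.0, 15.0 and 22.2 CPM to 26.7, 37.3 and 30.8 CPM (0.86 ± 0.16, limma adjusted p = 0.000431). In the high polysome its rise was 1.40 ± 0.21 (limma adjusted p = 1.83e-05), in the monosome the difference was 0.22 (limma adjusted p = 0.557), and in the low polysome 0.53 (limma adjusted p = 0.0642), which passed without KO gradient 1 or WT gradient 3 (limma adjusted p = 0.0368 and 0.0161).

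The other 5 members did not pass in abundance. Lamc1 gave 0.30 (95% interval −0.00 to 0.60, limma adjusted p = 0.0849) and passed without KO gradient 1 or WT gradient 3 (limma adjusted p = 0.00743 and 0.0226), and Hspg2 gave 0.23 (limma adjusted p = 0.171) and passed without WT gradient 1 (limma adjusted p = 0.0120). Lama1 gave 0.25, Col4a1 −0.23 and Col4a2 −0.04 (limma adjusted p = 0.187, 0.263 and 0.854). The 2 collagen IV genes, whose start sites lie in the window printed above, had abundance estimates of the same sign with 95% intervals of −0.60 to 0.13 and −0.45 to 0.36. With the 3 fractions weighted equally, Col4a1 fell (−0.43, limma adjusted p = 0.0263).

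Fraction by fraction, the calls differed. In the monosome 1 member was higher in KO (Sparc) and 2 were lower (Nid1 and Fn1), beside 18.6% and 20.1% of all genes. In the low polysome 1 was higher (Sparc) and 3 were lower (Nid1, Fn1 and Col4a1), beside 23.4% and 24.3%. In the high polysome 5 were higher (Lamb1, Hspg2, Lamc1, Lama1 and Sparc) and 1 was lower (Nid1), beside 25.3% and 21.1%. The median change of the members was −0.24, 0.01 and 0.47 from the lightest to the heaviest fraction, while the median over all genes stayed between −0.03 and −0.01.

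In the high polysome, Lamc1 (0.73 ± 0.16), Hspg2 (0.77 ± 0.18) and Lama1 (0.71 ± 0.19) rose (limma adjusted p = 0.00109, 0.00158 and 0.00557). The call on Lama1 was lost without KO gradient 2 or WT gradient 1 (limma adjusted p = 0.0590 and 0.0616). Col4a1 fell in the low polysome (−0.83 ± 0.28, limma adjusted p = 0.0201), a call lost without KO gradient 3 or WT gradient 3 (limma adjusted p = 0.120 and 0.0800). Its monosome difference of −0.82 did not pass (limma adjusted p = 0.0601) but did without WT gradient 2 (limma adjusted p = 0.0359), in edgeR (adjusted p = 0.0240) and in DESeq2 (adjusted p = 0.0130). Col4a2 gave 0.41 in the high polysome (limma adjusted p = 0.199) and passed without KO gradient 1 (limma adjusted p = 0.0291).

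**Figure D5:**
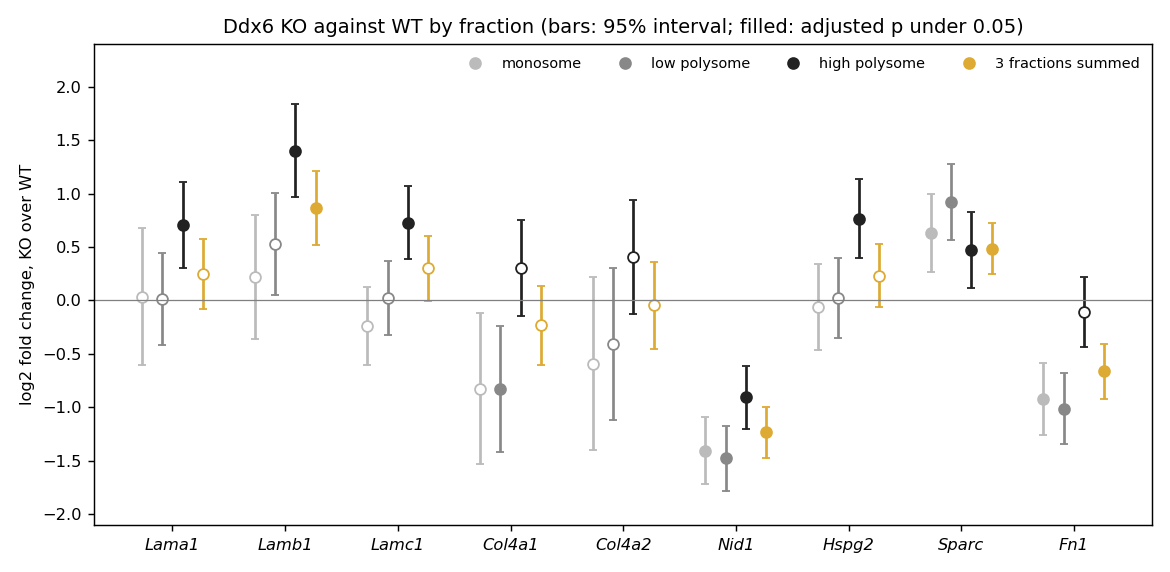
Log2 fold change of KO over WT (y axis) for the 9 members in each fraction and in the sum of the 3 fractions, with 95% intervals from limma. Filled points have an adjusted p under 0.05. In the high polysome 5 members are filled above 0, and Nid1 is filled below 0 in all 3 fractions.

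Other basement membrane genes were described from a list of 24 components, of which 13 passed the filter. Of these, 6 rose in translation level and none fell (median 0.97), and in abundance 7 rose and 3 fell (median 0.50). Lamb3, which is in both counts of raised genes, passed the filter through the KO high polysome alone, which builds in a rise. Over all genes, 10.7% rose and 7.09% fell in translation level, 28.1% rose among genes with a coding length over 3000 nt, and 27.8% rose and 27.2% fell in abundance. The 6 raised components all have coding lengths over 3000 nt, as do most of the 13 tested components. Nid2, the second nidogen, fell in abundance, as Nid1 did (log2 change −0.48, limma adjusted p = 0.00096) and rose in translation level (0.99 ± 0.20, limma adjusted p = 0.00255). Agrn, agrin, rose in translation level by 1.18 ± 0.26 (limma adjusted p = 0.00471), and Col18a1, a collagen of basement membranes, by 1.30 ± 0.38 (limma adjusted p = 0.0215).

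In abundance, chains of other laminins were among the changed genes of that list. Lama4, the α4 chain, rose from 4.73 ± 0.720 to 41.6 ± 9.10 CPM in the high polysome (SD, n = 3 each, log2 change in abundance 2.81, limma adjusted p = 6.69e-08). Lamb3, the β3 chain, had 0 to 3 counts in each WT library and 3 to 42 in KO, so no fold is given. Its calls in translation level and in abundance rest on those counts. Smoc1, a SPARC-related protein of basement membranes, fell from 43.5 ± 6.80 to 8.48 ± 3.04 CPM in the high polysome (log2 change in abundance −2.61, limma adjusted p = 1.46e-08). Pxdn, peroxidasin, which crosslinks collagen IV, rose (1.86 ± 0.21, limma adjusted p = 3.99e-06).

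Among 16 cell surface receptors for this matrix, 14 passed the filter, 3 rose and 2 fell in translation level, and 5 rose and 2 fell in abundance, beside 10.7% and 7.09% of all genes in translation level and 27.8% and 27.2% in abundance. Itga5, the α5 integrin chain of the fibronectin receptor, rose in translation level by 1.58 ± 0.29 and Itga3, an integrin chain of laminin receptors, by 1.38 ± 0.42 (limma adjusted p = 0.00156 and 0.0276). Dag1, dystroglycan, rose by 0.71 ± 0.23 (limma adjusted p = 0.0379). Sdc4, syndecan 4, fell by 1.16 and Itgb5 by 0.67 on the log2 scale (limma adjusted p = 0.000223 and 0.0344). In abundance Bcam (1.47), Ddr1 (1.18) and Itgb4 (1.24), receptors for laminin, collagen and laminin, rose (limma adjusted p = 1.76e-07, 7.40e-06 and 1.12e-05), as did Dag1 (0.79) and Itga5 (0.83), with limma adjusted p = 3.96e-05 and 0.000206.

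Of 23 genes for collagen folding and export, 20 passed the filter, with 3 raised and 3 lowered in translation level, and 10 raised and 2 lowered in abundance, beside the same shares of all genes (10.7% and 7.09%, 27.8% and 27.2%). The raised ones were the collagen chaperone Fkbp10 (1.60 ± 0.35), and the lysyl hydroxylases Plod3 (1.16 ± 0.31) and Plod1 (limma adjusted p = 0.00455, 0.0141 and 0.0376). The lowered ones were Sar1a and Sar1b, GTPases of the vesicles that leave the endoplasmic reticulum, and Mia2, a cargo receptor there, which fell by 0.84, 1.24 and 0.97 on the log2 scale (limma adjusted p = 0.00375, 0.00525 and 0.0142). In abundance Fkbp10 (2.79), Loxl2 (2.13), P3h3 (1.30), P4hb (0.63) and Sar1a (0.44) rose (limma adjusted p = 2.46e-09, 1.81e-06, 0.000111, 0.000169 and 0.00137). Loxl2 and P3h3 averaged under 3 CPM in every WT fraction (0 to 20 and 2 to 28 counts per WT library). They passed the filter mainly through KO libraries, so their folds lie near the floor of detection.

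Of 11 remodelling proteases and their inhibitors, 9 passed the filter and 8 of these rose in abundance and none fell (median 1.03), where 27.8% of all genes rose and 27.2% fell. Of the raised genes, Mmp9, Bmp1 and Plat averaged under 3 CPM in each WT fraction. They passed the filter mainly through KO libraries, so the filter favoured their rise and the count is not independent of it. The membrane protease Mmp14 rose from 34.9 ± 3.34 to 201 ± 7.92 CPM in the high polysome (log2 change in abundance 2.28, limma adjusted p = 5.61e-10). The metalloproteinase inhibitors Timp3 (1.92) and Timp1 (0.75) rose as well, with Htra1 (0.91) and Plat (2.17), both serine proteases (limma adjusted p = 2.33e-07, 2.72e-05, 9.77e-06 and 2.89e-05). Plat had 0 to 20 counts per WT library, so its fold lies at the floor of detection. In translation level Mmp14 (0.74) and Mmp2 (1.29) rose and Timp1 fell by 0.70 on the log2 scale (limma adjusted p = 0.0199, 0.0281 and 0.00803).

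Coding length also differed between the raised and lowered genes of these 4 lists, as a description. The 14 raised genes, Lamb3 (3504 nt) among them, had a median coding length of 3159 nt, the 6 lowered ones of 604 nt and all 56 tested genes of 2233 nt. The 3 lowered genes of 594 nt were Sdc4, Sar1a and Sar1b. The longest lowered gene was Mia2, at 4191 nt.

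The 5 other genes whose profile over the 18 libraries was most like the mean profile of the 9 members (Pearson correlation of log2 CPM, a description over libraries that share gradients) were Igf1r (0.96), Srrm2 (0.96), Igsf3 (0.95), Itgav (0.95) and Crebbp (0.95). Itgav, the αV integrin chain that binds fibronectin, is on the receptor list, and the other 4 are on none of the lists.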

How the data were processed

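QuantSeq 3′ FWD libraries were made from each fraction, so that reads mark transcript 3′ ends. Per the file headers, the submitters' processing notes and the study's methods, the authors trimmed reads with cutadapt 1.14, aligned them to mm10 with STAR 2.5.3a, kept unique alignments, and deposited counts per gene made with strand-specific featureCounts 1.5.3 on Gencode M14 with spike-in sequences. No molecular identifiers are mentioned, so counts may hold PCR copies and intervals cover the spread between gradients only. Spike-ins (28 to 169 counts per library) were left out.

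Symbols, coordinates and coding lengths came from Gencode M21 (51274 of 51467 identifiers matched). The filter of 3 CPM in 3 libraries, the use of limma and the interaction design were taken from the study. Counts were fitted with limma 3.58.1 (voom, TMM from edgeR 4.0.16) on 6 group means over 18 libraries, and abundance on counts summed per gradient, with Benjamini-Hochberg adjustment over 12705 genes and a threshold of 0.05. DESeq2 1.42.0 and edgeR's quasi-likelihood test were among the alternatives. Ratios per gradient used 0.5 CPM as a pseudocount. Scripts were tested on simulated data. All 9 members were named, with at most 5 genes per list and comparison by smallest adjusted p. Plod1, Mmp9, Bmp1 and the markers of other cells were named outside this rule, after their values were seen. The values of 1 listed gene are not reported here. The members and lists were chosen with earlier results of these data known.

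By the labels, 3 fractions share each gradient, and their deviations from group means correlated at −0.16 to 0.42. KO and WT gradients share only a number. Whether gradients came from separate cultures is not given, so p-values measure the spread between gradients, which may be technical.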

Additional observations from a re-analysis of the deposited data

Results flagged for a closer look

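For 4 members the ratio of high polysome to monosome differed between KO and WT by the interaction test in limma. The differences, KO minus WT on the log2 scale, were 0.82 for Fn1, 0.83 for Hspg2, 1.18 for Lamb1 and 0.97 for Lamc1 (limma adjusted p = 0.0178, 0.0345, 0.0241 and 0.00919). None of the 4 passed once the trend with coding length was removed.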

How the results depend on the processing

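For the KO effect on the translation level, the number of members called changed from 4 to 0 with the coding length trend removed and to 0 with no filter on low counts (27427 genes tested, 5 members at an unadjusted p under 0.05), and ranged from 0 to 6 when 1 gradient was left out. The cause of the loss without the filter was not tested. With 1 gradient left out, the members called were 5 to 7 (WT high polysome over monosome), 9 to 9 (KO high polysome over monosome), 0 to 0 (low polysome over monosome), 3 to 4 (monosome), 3 to 5 (low polysome), 4 to 7 (high polysome) and 4 to 5 (abundance). No called member changed sign under any of these alternatives. Estimates that were not called changed sign in 40 cases over all members and comparisons. Among them were the effects on the translation level of Lama1, Nid1 and Sparc with the length trend removed. Each other count of called members stayed within 1.5 times. The gradient as a replicate block gave 7, 9, 5 and 0 members for the 4 within-gradient comparisons, Col4a1 being added. The gradient number as a replicate block gave 3, 4, 6 and 5 for the 4 comparisons of genotypes, but there the numbers pair nothing. With pseudocounts of 0.1 and 2 CPM the median translation level of the members was 0.89 and 0.85 in WT (0.88 with 0.5 CPM) and 1.61 and 1.496 in KO (1.59 with 0.5 CPM). Over all genes the calls on the translation level numbered 2258, against 795 without the length trend and 742 without KO gradient 3. The smallest library counts were 15 for Lama1 and 23 for Col4a2, and the standard errors of the KO effect ran from 0.21 (Nid1) to 0.47 (Col4a2).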
